A study of Mus musculus with 30 samples.

Results

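Osteoclasts grown from the bone marrow of 6-month-old mice that lack Terc were compared with osteoclasts grown from wild-type mice of the same age. The comparison rests on 6 of the 30 libraries of the series, chosen by their titles and genotype labels: 3 libraries of Terc-/- cells, called KO here (replicates 1, 2 and 3), and 3 of wild-type cells, called WT (replicates 2, 3 and 4). The strain label is C57BL/6J for every library. Bone marrow-derived macrophages were kept in 25 ng/ml MCSF and 100 ng/ml RANKL, in medium with 10% fetal bovine serum, until large multinucleated cells had appeared, a point for which the labels give no day. Of the other 6-month groups, 3 KO libraries whose titles carry the prefix 519 were grown to the same point, and 3 WT libraries were grown for 2 days only. What the prefix means is not stated, so those libraries are called the set 519 KO. The unprefixed 1-month KO and WT libraries, 3 of each, were used for a test of age. A further 3 multinucleated WT libraries of 1 month, whose titles carry D1, were not part of that test. They are called set D1 WT, and what D1 means is not stated either. The labels do not say whether libraries of a group came from separate mice or cultures, so p-values measure only the spread between these libraries, which may be technical. Beyond the strain label, it was not tested whether the mice share a genetic background. Gm15446 and Ifi208, with 582 and 420 counts over the 3 KO libraries and 536 and 327 over those of 1-month WT, had 5 and 3 over the WT libraries of 6 months and 3 and 5 over the multinucleated WT libraries of 20 months. If backgrounds differ, their part in any difference between KO and WT, or between ages, cannot be told apart from that of genotype or age.

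Osteoclasts are the multinucleated cells that dissolve bone. They form when macrophage precursors receive MCSF, which keeps them alive, and RANKL, which through NF-kB, c-Fos and the factor NFATc1 turns on the genes of fusion, attachment and resorption. A mature cell seals a patch of bone with a ring of actin-rich podosomes, pumps in protons and chloride, and releases cathepsin K and matrix metalloproteinases. Terc is the RNA template of telomerase, the enzyme that extends chromosome ends. Type I interferon, made by cells that sense foreign or misplaced nucleic acid, induces antiviral genes through a receptor, kinases and transcription factors such as STAT2 and IRF9, and is known as a brake on osteoclast formation.

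Total counts per library were 22133843 to 23643742 in KO and 16621042 to 19969599 in WT. Terc itself (ENSMUSG00000064796, on chromosome 3) had 0 counts in all 6 libraries, which allows up to 0.0433 CPM (counts scaled to a common library total) over the KO group and 0.0544 over the WT group. Terc RNA has no poly(A) tail and the libraries were selected with oligo(dT), so its counts do not check the genotype label. All 6 libraries held the 4 Y-linked genes examined, with at least 405 counts of each, and 2 counts of Xist in all. The first principal components of the 12 libraries of 6 months carried 53.5% and 23.9% of the variance, and each group formed its own cluster. On the first component the WT libraries lay between 4.71 and 8.55, and the KO libraries between -22.4 and -20.1. The set 519 KO libraries lay between -66.4 and -61.8 there, and the WT 2-day libraries between 77.5 and 77.8. On the second component the WT libraries lay between 41.1 and 42.4, and the KO libraries between -53.3 and -50.0. The set 519 KO libraries lay between 14.5 and 16.7 on it. The KO libraries thus lay between WT and set 519 KO on the first component, and apart from both on the second.

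Of 15310 genes tested, 4669 were higher and 4510 lower in KO than in WT at an adjusted p under 0.05 by the edgeR quasi-likelihood test. These were 60.0% of all tested genes (30.5% higher and 29.5% lower), and the median log2 fold change of all of them was -0.02. Counts of list members in KO against WT below are to be read beside these shares. A change of at least 2-fold that passed the test was found for 1108 genes that were higher (7.24%) and 1443 that were lower (9.43%). The 3 KO and 3 WT libraries did not overlap for 10338 genes (67.5%), so a lack of overlap was common. Values below are CPM scaled by TMM, a factor that corrects for differences in library composition, and library values are given in the order of the replicate numbers.

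**Figure D1:**
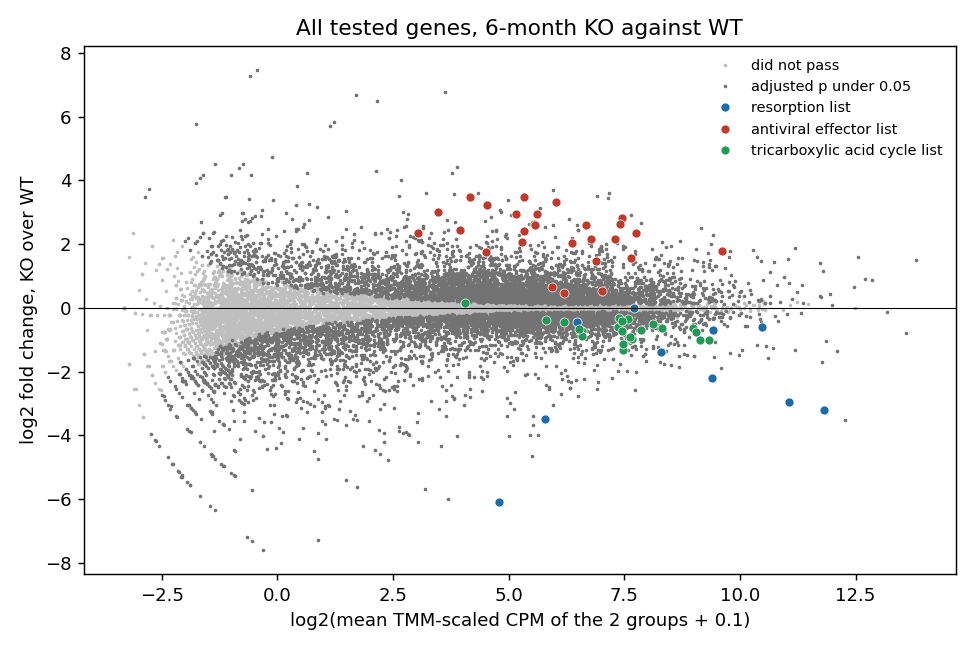
Log2 fold change of KO over WT (vertical axis) against the log2 of the mean level in both groups plus 0.1 CPM (horizontal axis) for the 15310 genes tested. Dark grey points passed an adjusted p of 0.05. The 27 antiviral effectors (red) all lie above 0, while 10 of 11 resorption genes (blue) and 21 of 22 tricarboxylic acid cycle genes (green) passed the test below 0.

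The genes that define a resorbing osteoclast were much lower in KO than in WT. All 8 osteoclast markers fell, each by at least 2-fold, with a median log2 fold change of -3.07 against -0.02 for all genes. Summed over the 8 markers, the level was 2277 to 2581 CPM in KO and 20280 to 21910 in WT. Of the 11 genes of the resorption list, which covers acid secretion and matrix degradation and includes Calcr, 10 fell. Only Plekhm1, a lysosomal adaptor of the ruffled border, did not pass, with 0.00. The list's median was -1.40. Ctsk, Acp5, Calcr and Atp6v0d2 are in both lists, so the 2 counts are not independent. In bulk RNA, fewer osteoclasts in the culture and less of these transcripts per osteoclast cannot be told apart.

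Ctsk, which encodes cathepsin K, the main collagen-degrading protease of the osteoclast, was at 6549.7, 6471 and 6398 CPM in the WT libraries. In the KO libraries it was at 662, 704 and 742 CPM. The groups were far apart, and Ctsk was 9.21 times lower in KO (log2 fold change -3.20, SE 0.08, edgeR adjusted p = 8.16e-26). Acp5, the tartrate-resistant acid phosphatase used to stain osteoclasts, was at 3874, 3919 and 3599.9 CPM in WT and 455, 489 and 534 CPM in KO. It was 7.70 times lower (log2 fold change -2.95, SE 0.09). Mmp9, a secreted gelatinase, was at 9634, 9146 and 8363 CPM in WT and 710.4, 808 and 825 in KO, 11.6 times lower. Calcr, the calcitonin receptor, which appears late in osteoclast maturation, stood at 54.5, 52.1 and 56.1 CPM in WT and at 0.736, 0.696 and 0.919 CPM in KO. Its fall of 6.10 on the log2 scale (SE 0.13, edgeR adjusted p = 9.64e-28) left it below 1 CPM in each KO library.

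The acid side of resorption was lower at several steps. Car2, the carbonic anhydrase that supplies protons, was at 104, 97.8 and 99.8 CPM in WT and 7.96, 8.53 and 10.4 CPM in KO, a log2 fold change of -3.48. Atp6v0d2, a proton pump subunit enriched in osteoclasts, was at 1079.9, 1129.5 and 1136 CPM in WT and 236, 238 and 252 CPM in KO, 4.61 times lower. The general osteoclast pump subunit Tcirg1 and the chloride channel Clcn7 fell less, with log2 fold changes of -0.60 and -0.68. The bicarbonate exchanger Slc4a2 and the sorting nexin Snx10 fell by 1.39 and 1.40 on the log2 scale. For none of these genes did a KO library reach a WT library, and 67.5% of all tested genes likewise had no overlap.

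**Figure D2:**
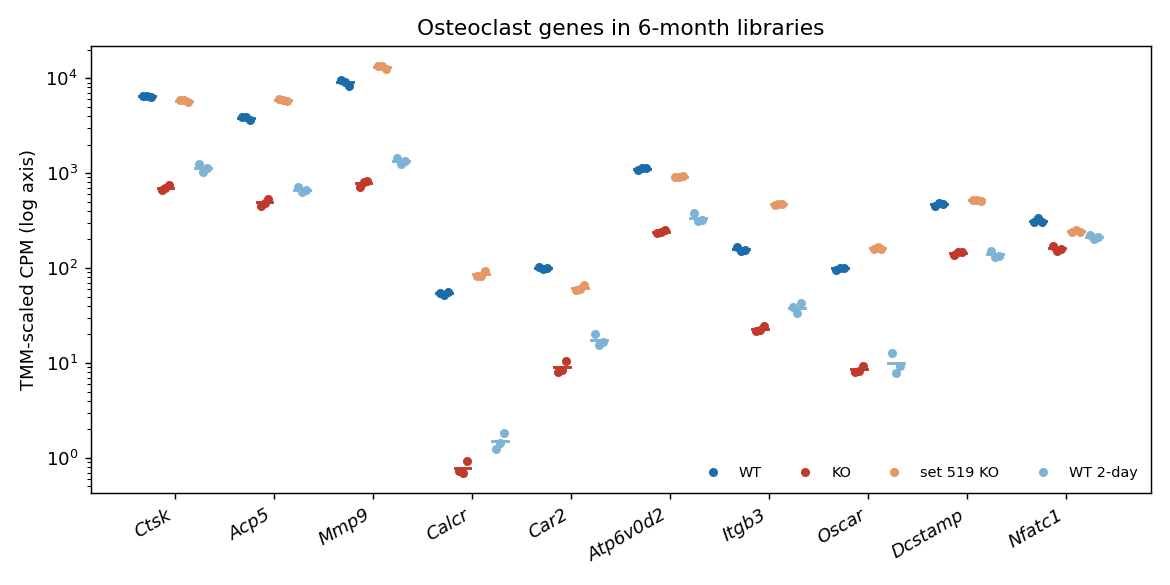
TMM-scaled CPM on a log axis of 10 osteoclast genes in the WT, KO, set 519 KO and WT 2-day libraries of 6 months. Points are libraries (3 per group) and short lines are group means. For Ctsk the mean was 703 in KO and 1131 in WT 2-day cultures against 6473 in WT and 5779.8 in the set 519 KO.

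The set 519 KO did not have this pattern. Set 519 KO and KO were each compared with the same WT libraries, so those comparisons are not independent, and the direct test between the KO groups is given. Ctsk was at 5856, 5845 and 5638 CPM in the set 519 libraries, near the WT values. All 8 osteoclast markers and all 11 resorption genes were lower in KO than in set 519 KO, a comparison in which 49.1% of all tested genes passed (22.6% lower). The medians were -3.31 and -1.53 on the log2 scale, against 0.03 for all genes. Against WT, the medians of the set 519 KO were 0.34 for the markers and 0.24 for the resorption genes, where 51.6% of all genes passed.

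The WT cultures stopped at 2 days gave levels closer to those of KO. Ctsk was at 1241, 1020.1 and 1133 CPM, Acp5 at 721, 632 and 657 CPM and Calcr at 1.24, 1.43 and 1.83 CPM in those 3 libraries. The summed marker level was 3416 to 4025 CPM, above every KO library. Of the 8 markers, 5 were lower in the KO multinucleated cultures than in the WT 2-day cultures and 3 did not pass, with a median of -0.46. In that comparison 59.8% of all genes passed (29.6% higher and 30.2% lower). Of the resorption genes, 4 were higher and 6 lower in KO than at 2 days.

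Surface receptors of osteoclasts divided in direction: 6 of 12 rose and 6 fell. Oscar, a co-stimulatory receptor that binds collagen, was at 95.8, 99.8 and 101 CPM in WT and 8.10, 8.22 and 9.28 CPM in KO. It was 11.6 times lower, with no overlap between the groups. Itgb3, the beta3 chain of the vitronectin receptor by which osteoclasts grip bone, was at 165, 152 and 154 CPM in WT and 21.8, 22.1 and 24.7 CPM in KO, a log2 fold change of -2.78. In the set 519 KO Itgb3 was at 464, 468 and 469.9 CPM, above WT, and its log2 difference between KO and set 519 KO was -4.35 (SE 0.07, edgeR adjusted p = 1.60e-31). Siglec15 fell by 2.94 on the log2 scale, and Itgav, the partner integrin chain of Itgb3, by 1.06. Tnfrsf11a, which encodes RANK, the receptor of RANKL, fell from a mean of 291 ± 6.91 CPM (SD, n = 3) to 189.7 ± 2.60 CPM. The receptor Trem2 and the signalling adaptors Tyrobp (DAP12) and Fcer1g rose, with log2 fold changes of 1.46, 0.91 and 1.27. Csf1r, the MCSF receptor, rose by 0.26.

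Among 9 fusion genes, 5 fell and 3 rose, against 29.5% and 30.5% of all tested genes. Dcstamp, a membrane protein needed for osteoclast fusion, was at 455, 486 and 473 CPM in WT and 137, 148 and 146 CPM in KO, 3.28 times lower. Its partner Ocstamp fell by 1.23 on the log2 scale and Mst1r, a receptor tyrosine kinase, by 2.42. The tetraspanin Cd81 and the don't-eat-me ligand Cd47 rose by 1.53 and 0.67, and Cd9 had -0.14, which did not pass here but passed in 5 alternatives, with edgeR or DESeq2 adjusted p values from 0.00186 (library totals as the only scaling) to 0.0289 (RLE scaling). Of 25 podosome and actin ring genes, 14 fell and 8 rose (29.5% and 30.5% of all tested genes), with a median of -0.20. Cttn, which encodes the actin-binding protein cortactin, was at 141, 145 and 132 CPM in WT and 41.6, 43.2 and 42.9 CPM in KO. Dock5, an exchange factor for Rac, and vinculin (Vcl) fell by 1.52 and 1.37, and the kinase Src by 1.00. The actin regulator Evl and pleckstrin (Plek) rose, both by 1.09.

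Proteases other than cathepsin K mostly rose: 18 of 27 were higher and 5 lower. The lysosomal cathepsins Ctsl, Ctss and Ctsd rose by 1.86, 1.58 and 1.42 on the log2 scale, and the macrophage elastase Mmp12 by 1.73. Ctsl was at 979, 1028 and 1036 CPM in WT and 3800.2, 3729 and 3539.6 CPM in KO. Mmp14, the membrane-bound collagenase of osteoclasts, fell by 1.20. These cathepsins were higher in the same libraries in which Ctsk and Mmp9 were lower.

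Factors that drive osteoclast formation did not all fall. Nfatc1, the master factor, was at 307, 334 and 305 CPM in WT and 171, 153 and 161 CPM in KO, 1.96 times lower (edgeR adjusted p = 1.11e-13). Ppargc1b, a coactivator of mitochondrial genes in osteoclasts, fell by 1.63 on the log2 scale, Prdm1 (Blimp1, which silences the repressors of osteoclast formation) by 1.29, and the AP-1 family members Jdp2 and Fosl2 by 1.14 and 1.10. Mitf fell by 0.46. Of the 19 factors in the list 11 rose, among them Fos (0.25), Junb (0.88) and Tfe3 (0.59), and Spi1 (PU.1), with 0.11, did not pass, except with only the compared groups in the fit (0.12, edgeR adjusted p = 0.0171). Of 12 factors that restrain osteoclast formation, 10 passed the filter on low counts, and of these 9 rose, with a median of 1.06. Irf8 was at 26.2, 26.0 and 24.8 CPM in WT and 62.8, 66.9 and 59.0 CPM in KO, so the groups did not overlap. The inhibitors of differentiation Id1, Id2 and Id3 rose by 1.96, 1.83 and 1.48, and Bcl6 by 0.82. Bach2 fell by 1.91.

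Calcium signalling genes, through which NFATc1 is activated, did not move as a group: 6 of 20 rose, 8 fell and 6 did not pass, with a median of -0.05. Of all tested genes, 30.5% rose and 29.5% fell. Orai1, the pore of the store-operated channel, rose by 1.62, and the calcineurin regulator Rcan1 fell by 0.64. The release channel Itpr3 had a log2 fold change of -0.33, and Itpr2 of 0.04, which did not pass.

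Macrophage genes were higher in KO. Of 24 phagocytic and scavenger receptors that passed the filter, out of 25, 21 rose and 1 fell, with a median of 1.26. Adgre1 (F4/80) was at 579, 542 and 542 CPM in WT and 1890.1, 1985 and 1970.1 CPM in KO, and Lyz2 (lysozyme) at 7367, 7371 and 7584 CPM in WT and 21020, 21075 and 21439 CPM in KO. The Fc receptor Fcgr1 was 4.93 times higher, the lectin receptors Clec4e and Clec4d rose by 2.02 and 1.85 on the log2 scale, and Msr1 and Cd36 by 1.31 and 1.37. Cd68, a lysosomal protein of both macrophages and osteoclasts, fell by 0.34. The summed level of the 8 macrophage markers was 27220 to 27740 CPM in KO, 11370 to 11520 in WT, 20360 to 20500 in set 519 KO and 9036 to 9564 in the WT 2-day cultures. Among these 6-month groups the sum was lowest in the WT 2-day cultures and highest in KO. The part of macrophages in the osteoclast result was not tested.

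Markers of other cells were examined in the same way. Of 15 stromal markers, 10 fell and 1 rose, and their sum was 1636 to 1698 CPM in KO and 2876 to 3585 in WT. Col1a1, Col1a2 and Col3a1 had log2 fold changes of -0.57, -0.78 and -1.79, and their part in the other results was not tested. The stromal marker that rose was Thy1 (1.62), a call lost without WT replicate 4 (1.16, edgeR adjusted p = 0.0775). Of 10 neutrophil markers, 2 passed the filter on low counts (S100a8 and Lcn2), both higher, with Elane and Retnlg at 0 counts in all 6 libraries. Of 11 T and NK cell markers, 2 passed the filter, both lower in KO, with Cd3d, Cd3e and Cd3g at 0 counts. Of 9 B cell markers 3 passed the filter and 1 fell. Of 10 erythroid and platelet markers 3 passed the filter, and the platelet chemokines Pf4 and Ppbp rose. Of 8 endothelial markers 6 passed the filter, of which 2 rose and 1 fell, and of 8 dendritic cell markers 4 passed it, of which 1 fell. Mcpt8, the mast cell and basophil marker that passed the filter, had 0.18 and did not pass the test.

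Most interferon-response genes were higher in KO. All 27 antiviral effectors rose, 24 of them by at least 2-fold, with a median log2 fold change of 2.41 against -0.02 for all genes. The guanylate-binding proteins and immunity-related GTPases, which attack vacuoles that hold pathogens, had 12 of 13 tested members higher (16 in the list) and a median of 1.90. Of 17 tested sensors of nucleic acids, 16 rose, and of 14 tested STAT and IRF factors, 13. No member of these 4 lists fell, except that 1 GTPase fell with RLE scaling, with library totals as the only scaling and without KO replicate 3. In the same libraries 7 of the 8 macrophage markers were higher, and their part in these rises was not tested.

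**Figure D3:**
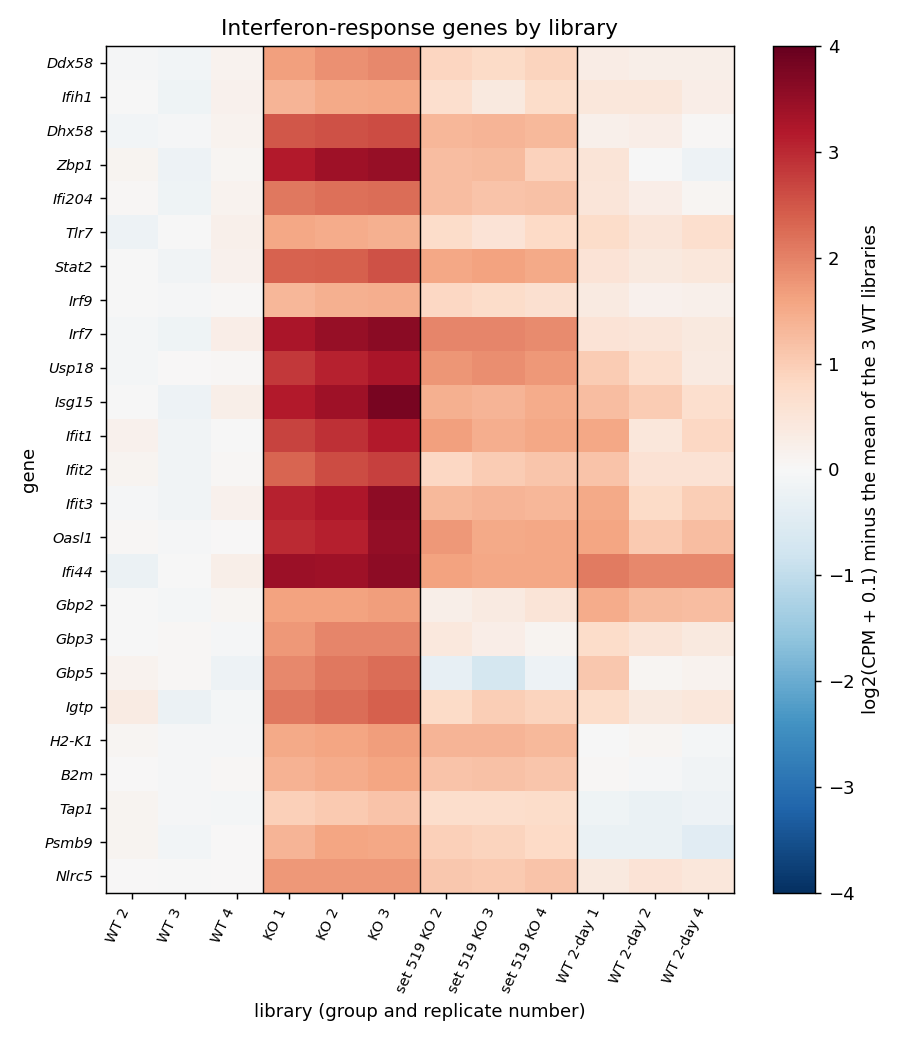
Each row is an interferon-response gene and each column a library of 6 months. Colour gives log2(CPM + 0.1) minus the mean of the 3 WT libraries. The 3 KO libraries are the darkest red in most rows, the set 519 KO libraries are intermediate for most, and near WT for Gbp3 and Gbp5.

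Of the sensors, Dhx58 (LGP2), Ddx58 (RIG-I) and Ifih1 (MDA5), helicases that bind viral RNA, rose by 2.55, 1.79 and 1.47 on the log2 scale. Zbp1, which binds left-handed nucleic acid, was at 6.07, 4.87 and 5.85 CPM in WT and 50.6, 59.9 and 63.2 CPM in KO, 10.3 times higher (edgeR adjusted p = 2.35e-19). The cytosolic DNA sensor Cgas and its adaptor Tmem173 (STING) rose by 0.80 and 1.13, and the endosomal RNA receptor Tlr7 by 1.48. Aim2 had 0.06 and did not pass. Mavs, the adaptor of the RNA helicases, had 0.12 (edgeR adjusted p = 0.026). That call was lost in 8 alternatives: with RLE scaling, library totals, no filter, the stricter filter and DESeq2, and without WT replicate 4, KO replicate 1 or KO replicate 2, with adjusted p values from 0.0541 to 0.462. Ifi204 and Ifi205 rose by 2.18 and 2.93, and belong to a family of near-identical copies among which reads may be split.

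Transcripts of the interferons examined were not detected. Ifnb1, Ifna1, Ifna2, Ifna4, Ifng, Ifnl2 and Ifnl3 had 0 counts in all 6 libraries, a limit of 0.0433 CPM over the KO libraries. The receptor chains Ifnar1 and Ifnar2 rose by 0.34 and 0.73 on the log2 scale. Jak1, a receptor kinase, had -0.06 and did not pass, and Tyk2 rose by 0.47. Feedback inhibitors of the receptor rose more: Usp18 was at 5.60, 5.97 and 6.05 CPM in WT and 42.5, 50.1 and 57.2 CPM in KO, 8.48 times higher, and Socs1 rose by 2.40.

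Among the transcription factors Irf7, which amplifies the response, changed most of those with more than 5 CPM. It was at 22.4, 20.7 and 28.4 CPM in WT and 228, 266 and 288 CPM in KO, 10.9 times higher (log2 fold change 3.45, SE 0.15, edgeR adjusted p = 2.93e-20). Stat2 and Irf9, which bind interferon-response promoters in a shared complex, rose by 2.44 and 1.41. Irf1 and Irf5 rose by 0.80 and 1.07, and Irf4 had 0.30 and did not pass.

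Isg15, a ubiquitin-like modifier, was at 6.42, 5.66 and 7.74 CPM in WT and 59.9, 69.7 and 92.5 CPM in KO, 11.2 times higher (log2 fold change 3.48, SE 0.18). Ifit1, which binds foreign RNA caps, was at 12.7, 10.1 and 10.9 CPM in WT and 72.6, 84.4 and 101 CPM in KO, 7.67 times higher. In both genes KO replicate 3 was the highest library and replicate 1 the lowest KO library, still several times above every WT library. Ifit2, Ifit3, Oasl1, Cmpk2 and Ifi44 rose by 2.59, 3.32, 3.24, 2.94 and 3.48. Ifit3 and Ifit3b, and Oas1a and Oas1g, are near-identical copies, so the share of reads each received is uncertain. The smallest changes among the effectors were those of Apobec3 (0.47) and Ifitm2 (0.52).

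Gbp2, Gbp3 and Gbp5 rose by 1.64, 1.90 and 2.13, and Igtp by 2.26. Gbp3 was at 9.74, 10.2 and 9.53 CPM in WT and 32.9, 38.2 and 38.7 CPM in KO. Gbp8 had -0.36 and did not pass. Gbp7 rose by only 0.28, a call lost without WT replicate 2 (0.28, edgeR adjusted p = 0.065), without WT replicate 3 (0.20, edgeR adjusted p = 0.179) and without KO replicate 2 or 3 (0.26 and 0.28, edgeR adjusted p = 0.0834 and edgeR adjusted p = 0.0624). The call was also lost with library totals (0.20, edgeR adjusted p = 0.14), the stricter filter (0.24, edgeR adjusted p = 0.0688) and DESeq2 (0.26, DESeq2 adjusted p = 0.0676).

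The promoters of these genes were examined because the members of both lists rose together. The windows ran from 250 bases before to 50 bases after each start site in the RefSeq table (build GRCm38.p6), and were searched on both strands, overlapping matches counted separately, for the core of the interferon-stimulated response element, which is GAAA followed, after 2 bases of any kind, by GAAA again. Of the antiviral effectors, 20 genes had an entry, with 23 promoters, of which 14 held the element (60.9%). Of the 13 tested GTPases, 8 genes had an entry, with 9 promoters, of which 8 held it (88.9%). Gbp2b and Tgtp1 also had an entry, each with 1 match, but did not pass the filter on low counts and were left out. The element was present in 1131 of all 32851 promoters of that length in the same source (3.44%). A match is a description of letters and not a binding site. Among the effectors without a match were Ifit2, Oasl1, Cmpk2 and Ifi44, which also rose. A second promoter of Gbp3 held no match either. The stretches of 250 bases before the start are shown for 3 genes described above that held the element, with the matches in capitals. They lie at chr4:156200819-156201068 on the minus strand, chr19:34640639-34640888 on the plus strand and chr3:142559794-142560043 on the plus strand.
Isg15: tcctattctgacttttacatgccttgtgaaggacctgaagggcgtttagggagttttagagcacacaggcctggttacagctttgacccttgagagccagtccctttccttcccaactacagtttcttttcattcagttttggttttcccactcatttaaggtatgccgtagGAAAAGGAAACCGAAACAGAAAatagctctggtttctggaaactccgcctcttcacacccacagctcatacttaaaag
Ifit1: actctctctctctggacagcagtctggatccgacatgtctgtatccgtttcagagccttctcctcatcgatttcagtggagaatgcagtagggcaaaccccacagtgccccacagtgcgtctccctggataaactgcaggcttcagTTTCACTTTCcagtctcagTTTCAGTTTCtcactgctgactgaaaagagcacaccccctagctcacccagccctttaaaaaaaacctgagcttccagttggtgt
Gbp3: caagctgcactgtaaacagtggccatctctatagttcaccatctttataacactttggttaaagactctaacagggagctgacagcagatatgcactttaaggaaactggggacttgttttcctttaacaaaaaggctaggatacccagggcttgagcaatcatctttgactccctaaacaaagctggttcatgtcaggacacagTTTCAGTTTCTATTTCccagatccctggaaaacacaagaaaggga
Isg15 held 3 overlapping matches, and Ifit1 and Gbp3 each held 2, which in Gbp3 overlapped. Of 18 promoters of 9 resorption genes, 3 (16.7%) held TCANGTGA, a box bound by MITF and TFE factors, against 4.18% of all promoters. They belonged to Acp5, Clcn7 and Plekhm1, of which Plekhm1 did not pass the test between KO and WT. The promoters of the other resorption genes, Ctsk and Calcr among them, did not hold it. That box was in none of the 23 effector and 9 GTPase promoters counted, but was in the promoter of Tgtp1, which was left out. The AP-1 motif TGANTCA was in 1 of the 18 resorption promoters (5.56%), 7 of the 23 effector promoters (30.4%) and 2 of the 9 GTPase promoters (22.2%), against 7.81% of all. The interferon element was in 2 of the 18 resorption promoters (11.1%).

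The set 519 KO moved the same lists less. Against the shared WT libraries, 23 of the 27 antiviral effectors were higher and 1 lower, with a median of 1.01, and 6 of 13 GTPases were higher with a median of 0.27. In these comparisons 25.7% of all genes were higher. Irf7 was at 90.9, 92.1 and 88.1 CPM in the set 519 libraries, between WT and KO. Tested directly, 25 of 27 effectors and 12 of 13 GTPases were higher in KO than in set 519 KO, where 26.5% of all genes were higher, with medians of 1.13 and 1.39.

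MHC class I genes rose, and did so in the set 519 KO too. Of 18 genes of class I processing and presentation, 16 rose in KO and 1 fell, with a median of 1.19. B2m, the common light chain, was at 743, 712 and 759.5 CPM in WT and 1921, 2049.7 and 2188 CPM in KO. H2-K1 and H2-D1 rose by 1.58 and 1.13 on the log2 scale, the peptide transporter Tap1 by 1.05, the proteasome subunit Psmb9 by 1.50 and Nlrc5, the activator of class I genes, by 1.74. H2 genes resemble each other closely, so their single values are uncertain. The set 519 KO had 15 of 18 higher than WT, against 25.7% of all genes, and a median of 0.80. Class II genes were mixed: 6 of 11 rose and 2 fell. H2-Aa and H2-Eb1 fell by 0.90 and 1.40, the co-stimulatory Cd40 and the checkpoint ligand Cd274 (PD-L1) rose by 1.45 and 1.49, and Ciita had -0.56, which did not pass. Ciita passed without WT replicate 4 (-0.88, edgeR adjusted p = 0.0466) and without KO replicate 1 (-1.09, edgeR adjusted p = 0.0239).

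Chemokines rose steeply. Of 22 tested, out of 23, 17 rose and 1 fell, 15 of the rises reaching 2-fold, with a median of 2.37. Ccl5, which draws T cells, was at 1.11, 2.15 and 0.871 CPM in WT and 22.5, 27.8 and 26.8 CPM in KO, 18.7 times higher. Cxcl10, an interferon-induced chemokine, was at 11.3, 8.69 and 11.2 CPM in WT and 77.3, 85.0 and 111 CPM in KO. Ccl2, the main attractant of monocytes, was at 42.7, 46.7 and 49.4 CPM in WT and 318, 399 and 337 CPM in KO, 7.59 times higher. Ccl12, Cxcl3 and Pf4 rose by 3.58, 4.30 and 3.52. Cxcl12, made by stromal cells, fell by 2.02. In the set 519 KO 9 of 22 were higher than WT and 2 lower, against 25.7% and 25.9% of all genes, with a median of 0.27. In the direct test 18 of 22 were higher in KO than in set 519 KO, against 26.5% of all genes, with a median of 2.36. Of 14 chemokine and chemoattractant receptors 9 rose, C5ar1 and Fpr1 by 2.08 and 2.05, and Ccr1, which osteoclasts carry, fell by 1.30.

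Cytokines and their receptors rose in 21 of 28 tested genes and fell in 4. Il1b was at 1.23, 1.05 and 0.677 CPM in WT and 9.89, 12.1 and 11.6 CPM in KO, 11.5 times higher, with no overlap. In the set 519 KO it was at 0.452, 0 and 0.171 CPM, and its log2 difference from WT of -1.95 did not pass. Il1a and Osm rose by 3.04 and 1.96. Tnf was at 15.9, 18.6 and 16.7 CPM in WT and 57.4, 58.6 and 61.3 CPM in KO, 3.46 times higher, and its receptor Tnfrsf1b rose by 1.84. Lif and the interleukin-1 receptor Il1r1 fell by 2.16 and 2.14. Il6 stayed below 2 CPM on average in both groups, with 0.971 in KO and 0.144 in WT.

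Of 25 Toll-like receptor and inflammasome genes, 20 rose and 2 fell, with a median of 0.60. Tlr2 and its co-receptor Cd14 rose by 2.03 and 1.68 on the log2 scale, Nlrp3 by 0.85 and Tlr4 by 0.58. Traf6, the adaptor that carries the RANK signal, fell by 0.91. Of 21 feedback inhibitors, 12 rose and 6 fell: Socs3 rose by 2.41 and Zfp36, which destabilises cytokine mRNA, by 1.45, while Spry1 and Socs2 fell by 2.01 and 1.50.

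Complement and lipid mediator genes were also mostly higher. Of 18 complement genes, 12 rose and 3 fell. C3 was at 231, 229 and 235 CPM in WT and 1117, 1112 and 1156 CPM in KO, 4.87 times higher, and the C1q chains C1qa, C1qb and C1qc rose by 1.79, 1.37 and 1.90. Serping1, the C1 inhibitor, fell by 2.83. Of 18 tested prostaglandin and leukotriene genes, 14 rose and 1 fell. Ptgs1 (COX-1) was at 11.8, 12.1 and 9.63 CPM in WT and 50.5, 55.3 and 47.7 CPM in KO, and Ptges and Alox5ap rose by 1.98 and 1.92. The gene that fell was Akr1c18, a hydroxysteroid dehydrogenase, at 81.3, 84.7 and 93.9 CPM in WT and 3.45, 3.22 and 3.72 CPM in KO.

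Mitochondrial genes moved the other way. The mitochondrial genome took 4.07% to 4.30% of counts in the WT libraries and 1.81% to 1.90% in the KO libraries. In the set 519 KO it took 3.05% to 3.07%, and in WT 2-day cultures 2.50% to 2.71%, so KO was below every other 6-month group. At 1 month the share was 1.83% to 1.96% in KO and 1.96% to 2.09% in WT, near that of 6-month KO, with 6-month WT the highest of these 4 groups. The other 1-month groups differed: set 519 KO had 2.39% to 2.67%, and set D1 WT had 5.97% to 6.37%, above 6-month WT. Osteoclast markers were also lower in the 6-month KO libraries, and their part in the difference between KO and WT was not tested. Of the 13 protein-coding genes of the mitochondrial genome 12 fell and 1 rose, with a median of -1.40. mt-Cytb was at 6032, 6483 and 6406 CPM in WT and 2544, 2499 and 2409 CPM in KO, 2.54 times lower, and mt-Co1 and mt-Nd1 fell by 0.78 and 1.05 on the log2 scale. mt-Nd3, which rose, and mt-Co2, mt-Co3, mt-Atp6, mt-Atp8 and mt-Nd4l were each below 20 CPM on average in both groups, and may share reads with near-identical copies, so their values are uncertain.

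**Figure D4:**
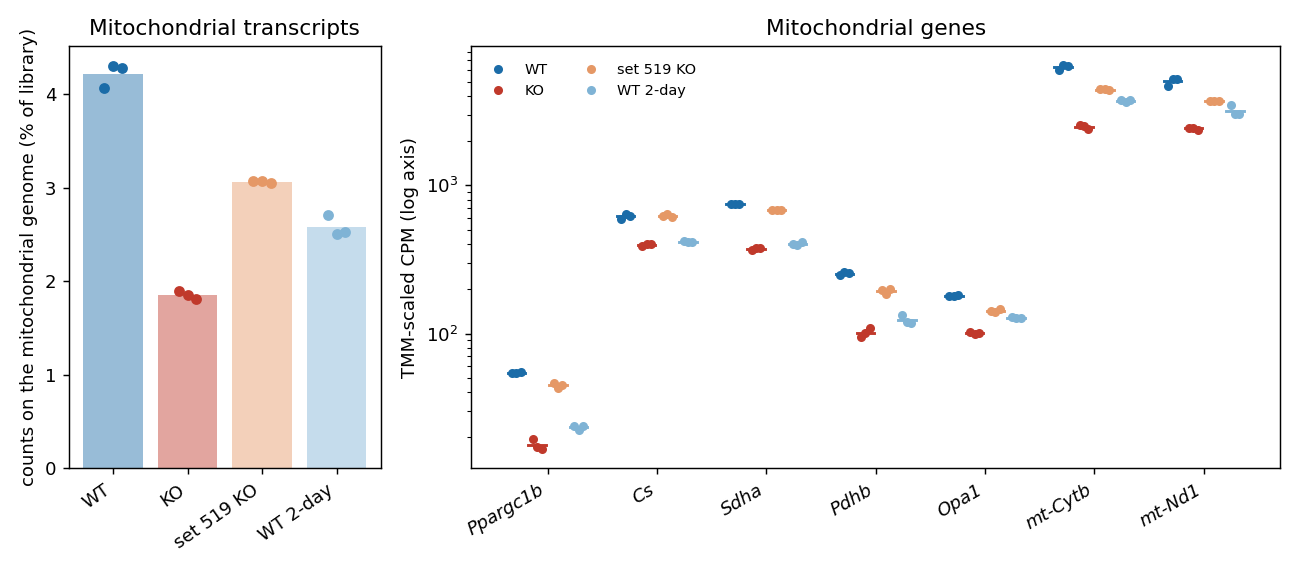
Left, percent of each library's counts on the mitochondrial genome (bars are means, points are libraries, 3 per group). Right, TMM-scaled CPM on a log axis of 7 mitochondrial genes in the same groups, with short lines at the means. KO is the lowest group for the mitochondrial share (1.81% to 1.90%) and for Ppargc1b (mean 17.6 CPM against 54.5 in WT).

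The nuclear genes of the tricarboxylic acid cycle fell as a group: 21 of 22 were lower, none was higher, and the KO and WT libraries of all 22 did not overlap, against 67.5% of all tested genes. The median was -0.68. Sdha, a subunit of succinate dehydrogenase, was at 750.1, 751 and 754 CPM in WT and 364, 377 and 377 CPM in KO. The pyruvate dehydrogenase subunits Pdha1 and Pdhb, which feed the cycle, fell by 1.15 and 1.33, and citrate synthase (Cs) by 0.64. Pcx, pyruvate carboxylase, had 0.15 and did not pass. In the set 519 KO 10 of 22 were lower than WT and 2 higher, against 25.9% and 25.7% of all genes, with a median of -0.13. Tested directly, 19 of 22 were lower in KO than in set 519 KO, against 22.6% of all genes. Genes that build and shape mitochondria were less uniform: 10 of 20 tested fell and 6 rose, against 29.5% and 30.5% of all genes. Ppargc1b was 3.09 times lower, and Opa1, which shapes cristae and fuses inner membranes, fell by 0.84 and Lrpprc, which stabilises mitochondrial mRNA, by 0.69. Tfam, the factor that packs mitochondrial DNA, fell by 0.25, and Nrf1 had -0.06 and did not pass.

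Enzymes typical of activated macrophages were higher. Of 16 tested genes of itaconate, nitric oxide, arginine, tryptophan and NAD metabolism, 14 rose. Acod1, which diverts aconitate from the cycle to itaconate, was at 17.9, 16.9 and 18.0 CPM in WT and 96.9, 106 and 116 CPM in KO, 6.04 times higher. Nos2 was at 5.43, 2.83 and 4.02 CPM in WT and 12.6, 16.9 and 20.2 CPM in KO, and Ass1, which regenerates arginine for it, rose by 1.67. The NADPH oxidase subunits Ncf1 and Cybb rose by 1.54 and 1.16. Arg1 had -0.99, a call lost without WT replicate 2 (-0.23, edgeR adjusted p = 0.448). Amino acid transport and one-carbon genes were mixed, with 10 of 25 tested higher and 6 lower, near the shares over all tested genes (30.5% and 29.5%): Slc7a2 and Slc7a11 rose by 1.71 and 1.16, and Slc1a5 fell by 0.61. Without WT replicate 3 the count of lower genes was 3.

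Survival and arrest genes were mixed. Of 26 genes of the BCL2 family and caspases, 14 rose and 7 fell. Bcl2l1 (Bcl-xL), which protects osteoclasts and macrophages from death, was at 28.5, 28.1 and 26.0 CPM in WT and 83.4, 89.2 and 85.2 CPM in KO, 3.13 times higher. The pro-apoptotic Bax rose by 1.19, Pmaip1 (Noxa) fell by 2.09, and Mcl1 had 0.01 and did not pass. Of 22 cyclin-dependent kinase inhibitors and p53 readouts, 12 rose and 7 fell (30.5% and 29.5% of all tested genes), with a median of 0.24. Cdkn1a (p21) was at 209, 189 and 183 CPM in WT and 505, 512 and 506 CPM in KO, and Cdkn2a, which encodes p16 and p19, at 14.5, 13.7 and 15.1 CPM in WT and 35.8, 38.4 and 38.9 CPM in KO. Gdf15 was 4.78 times higher. Cdkn1b (p27) and Trp53inp1 fell by 0.85 and 0.93.

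Telomerase and shelterin genes passed the test about as often as all tested genes (30.5% higher and 29.5% lower). Of 19 tested, 7 rose, 5 fell and 7 did not pass, none changed by 2-fold, and the median was 0.08. Tert, the protein subunit of telomerase, was below 1 CPM, with a mean of 0.306 in WT and 0.250 in KO, and did not pass. Dkc1 and Nop10, which bind the telomerase RNA, fell by 0.23 and 0.38 on the log2 scale. The end-protection factors Ctc1 and Acd rose by 0.76 and 0.62, and Terf2ip fell by 0.55.

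DNA replication and mitosis genes were higher in KO than in WT. Of 25 genes, 22 rose and 1 fell, with a median of 0.49. Pcna, the sliding clamp of replication, was at 211, 227 and 211 CPM in WT and 414, 438 and 439.9 CPM in KO, 1.99 times higher, and Rrm2 and Birc5 rose by 1.03 and 0.85. Mki67 was the gene that fell, by 0.33. In the set 519 KO 21 of the 25 were lower than in WT and 1 higher, against 25.9% and 25.7% of all genes, with a median of -0.48. All 25 were higher in KO than in set 519 KO, against 26.5% of all genes. In the WT 2-day cultures 19 of the 25 were above KO, and the summed level was 4675 to 4920 CPM there, 3576 to 3666 in KO and 2768 to 2870 in WT.

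**Figure D5:**
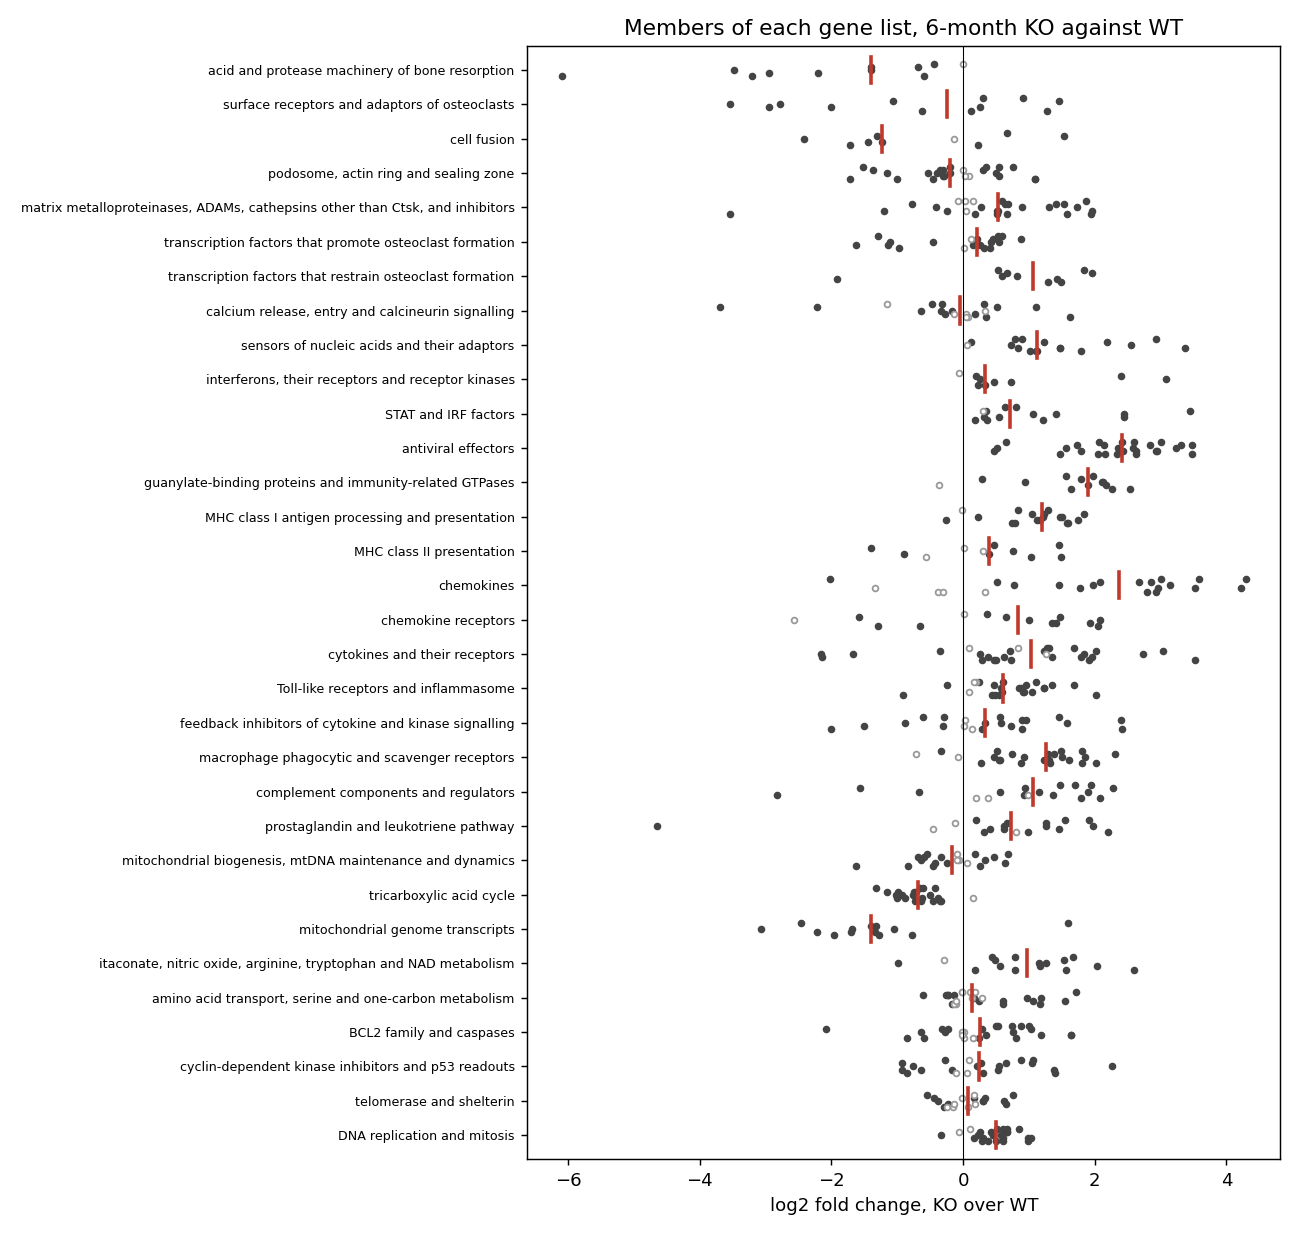
Log2 fold change of KO over WT (horizontal axis) of the tested members of 32 gene lists (rows). Filled points passed an adjusted p of 0.05, open points did not, and red bars are list medians, from -1.40 for mitochondrial genome transcripts and -1.40 for resorption to 2.41 for antiviral effectors.

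The protein-coding genes with the largest rises among those with at least 5 CPM in a group and no overlap between groups were of several kinds. Lcn2, counted above among the neutrophil markers, encodes the siderophore-binding protein lipocalin 2. It was at 1.40, 1.31 and 1.21 CPM in WT and 21.8, 33.1 and 28.6 CPM in KO, 21.3 times higher. Saa3, an acute-phase protein of macrophages, was at 25.7, 22.1 and 18.7 CPM in WT and 218, 297 and 284 CPM in KO. Ly6a (Sca-1) was at 8.99, 8.85 and 8.47 CPM in WT and 96.5, 120.1 and 127 CPM in KO, and Lrmda at 0.642, 0.786 and 0.726 CPM in WT and 11.4, 11.7 and 12.3 CPM in KO. Ifi208, of the Ifi200 family, had 3 counts in the WT libraries together and 420 in the KO libraries, a ratio of counts per total of 112, with an exact 95% interval of 37.9 to 543 that covers counting error only. Gm15446 had 5 counts in WT and 582 in KO, a ratio of 92.8 (39.5 to 287). Ifi206, a further member of the family, rose by 3.61 on the log2 scale.

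The largest falls, after Calcr, were those of Steap4, Corin, Olfml2a and St8sia6. Steap4, a metalloreductase, was at 25.4, 25.2 and 25.4 CPM in WT and 0.230, 0.392 and 0.525 CPM in KO, and Corin, a membrane serine protease, at 19.4, 18.1 and 16.1 CPM in WT and 0.460, 0.174 and 0.394 CPM in KO. Both were nearly absent from KO. Olfml2a and St8sia6 fell by 5.64 and 5.39 on the log2 scale, and Dgki, Msln, Cux2 and Ephx2 by 4.59, 4.47, 4.33 and 4.33. Ckmt1, a mitochondrial creatine kinase, was 18.6 times lower, and Sfrp4, a secreted Wnt antagonist, 18.4 times lower.

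The effect of genotype at 6 months was set against that at 1 month in the unprefixed libraries. For 7444 genes (48.6%; 27.1% higher and 21.6% lower) the KO to WT log2 difference at 6 months differed from that at 1 month. Of the 27 antiviral effectors 26 had a larger difference at 6 months, with a median of 2.13 against 0.02 for all genes, as had 12 of 13 GTPases and 14 of 22 chemokines. Irf7 was at 188, 182 and 232 CPM in 1-month KO and 246, 275 and 185 CPM in 1-month WT, with a mean of 200.5 in KO below that of 236 in WT. Among these 4 groups the 6-month WT libraries, at 22.4, 20.7 and 28.4 CPM, stood apart as low. The age difference of Irf7 was 3.68 (SE 0.19, edgeR adjusted p = 7.79e-17). Summed over the 27 effectors, the level was 4160 to 4825 CPM in 6-month KO, 4084 to 4543 in 1-month KO, 3709 to 4245 in 1-month WT and 1115 to 1252 in 6-month WT. The summed chemokine level was 4510 to 5343 CPM in 1-month KO and 4157 to 5460 in 1-month WT, where the groups overlapped, and 1785 to 1929 in 6-month WT. The summed macrophage marker level was lowest in the same group, at 11370 to 11520 CPM in 6-month WT, 28440 to 30720 in 1-month WT, 27220 to 27740 in 6-month KO and 46270 to 49230 in 1-month KO, and its part in these age differences was not tested. All 25 replication genes had a positive age difference, and 17 of 22 tricarboxylic acid cycle genes a negative one. The summed replication level was lower in KO at 1 month, with 3074 to 3150 CPM against 4283 to 4440 in WT. At 6 months it was higher in KO, with 3576 to 3666 CPM against 2768 to 2870 in WT. In set D1 WT, as CPM of the library total, Ccl5 and Ccl12 had means of 2.94 and 3.133, against 25.77 and 26.66 in 1-month WT. Pf4 was at 118.6 against 189.5, and Cxcl3 at 13.25 against 8.135. The part of age in these differences cannot be told apart from that of the set of libraries.

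For osteoclast genes, the KO to WT difference did not always differ between the 2 ages, although their levels did. Ctsk was at 85.2, 56.8 and 75.5 CPM in 1-month KO and 568, 558 and 550.3 CPM in 1-month WT, and its age difference of -0.26 (SE 0.11) did not pass (edgeR adjusted p = 0.0515). Calcr had -2.75 (edgeR adjusted p = 0.108), which did not pass either. Of the 8 markers 4 had a negative age difference, among them Mmp9 at -2.16 and Atp6v0d2 at -1.42, and 2 a positive one, Ocstamp at 1.08 and Dcstamp at 0.29. Ctsk was lower in KO than in WT at both ages, without overlap between libraries. The summed marker level was 605 to 666 CPM in 1-month KO and 2202 to 2304 in 1-month WT, both far below the 20280 to 21910 CPM of 6-month WT. The set D1 WT libraries, also of 1 month, were not in the test. As CPM of the library total, mean Calcr was 79.94 there, 0.401 in 1-month WT and 55.92 in 6-month WT. Levels of the other markers in set D1 WT are not reported here. The part of age in these differences cannot be told apart from that of the set of libraries.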

How the data were processed

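The deposited values were whole-number fragment counts per gene, made by the authors with featureCounts 1.6.0 on a STAR alignment, counting exons of Ensembl 88 (GRCm38), per the file headers. The recorded command had no strand or multimapping option, so a gene and its antisense partner are not separated. The submitters' processing notes name HTSeq and mm10 instead. Which release of STAR was run, and whether reads were trimmed first, is not given in the sources used here. Of 50686 genes, 50376 (99.39%) were matched to a symbol.

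Counts of all 30 libraries in 10 groups of 3 were filtered with filterByExpr, which removed 35376 genes and kept 15310. They were scaled by TMM and fitted in 1 model with edgeR 4.0.16 (glmQLFit, glmQLFTest; limma 3.58.1, R 4.3.3), with Benjamini-Hochberg adjustment and a threshold of 0.05. The fit pooled the spread of all groups, and the common biological coefficient of variation was 0.061. The SE of a log2 fold change is its size divided by the root of the F statistic. Within a group, pairs of libraries differed by more than sampling noise (chi-square per degree of freedom of 2.70 to 5.48 in KO and WT), so none was counted as a copy. The script was tested on simulated data.

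The gene lists and the comparison were chosen with earlier results of these data known. Genes were named by rule: the first 4 members of each list, up to 4 further members with the largest changes, and the 12 highest rises and 12 largest falls among protein-coding genes with at least 5 CPM in a group and no overlap between libraries. Values of some list members are not reported here. Promoters came from RefSeq. Alternatives were RLE scaling, library totals, no filter, a stricter filter, DESeq2 1.42.0, only the compared groups, a replicate block and leaving out each library. For 95% counting intervals and limits for 0 counts (3 counts), only counting error is covered.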

Additional observations from a re-analysis of the deposited data

Results flagged for a closer look

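The difference between KO and WT at 6 months was tested against that at 1 month, and 7444 genes had an age difference at an adjusted p under 0.05 in edgeR's test of the interaction. These were 48.6% of all tested genes. The set D1 WT libraries of 1 month were not part of this test, so the part of age cannot be told apart from that of the set of libraries. The genes below were chosen for their large difference at 6 months, which enters the age difference, so their values are a description.

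Among the genes higher in KO at 6 months, the log2 age difference was 6.61 for Ifi208, 13.21 for Gm15446, 2.93 for Lcn2, 3.95 for Cxcl3, 3.34 for Ccl5 and 3.55 for Lrmda. It was 4.60 for Ly6a, 3.10 for Ifi206, 2.25 for Saa3, 3.50 for Ccl12, 2.80 for Il1b and 3.31 for Pf4. The values for Ifi208 and Gm15446 depend on how low counts are treated, since Ifi208 had 3 counts in 6-month WT, and Gm15446 had 5 there and 4 in 1-month KO. Cxcl3 had 23 counts in 6-month WT.

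Among the genes lower in KO at 6 months, the age difference was -4.38 for Steap4, -4.74 for Corin, -8.12 for Olfml2a, -4.65 for St8sia6 and -4.97 for Akr1c18. It was -3.56 for Dgki, -3.46 for Cux2, -4.07 for Ephx2, -2.47 for Ckmt1 and -5.18 for Sfrp4. These values also depend on low counts: apart from Akr1c18, each gene had 5 to 36 counts in the lowest of the 4 groups, with 5 for Olfml2a in 1-month WT and for St8sia6 in 1-month KO. Groups of 3 libraries are too small for a test of single outlying libraries.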

How the results depend on the processing

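Across the alternatives, 3681 of 3723 values of 288 named genes kept their side of the threshold, 33 lost the call and 9 gained it. No gene that passed in the main fit changed sign. The sign of genes that did not pass there was not followed. The genes that lost it in at least 1 alternative were Arg1, Ccr2, Gbp7, Itpr1, Kynu, Mavs, Slc7a5, Thy1 and Tln1, and those that gained it Cd9, Ciita, Clec9a and Spi1. With the stricter filter (at least 5 CPM in 3 libraries), 11000 genes were tested and the counts of genes changed by 2-fold fell. They were 701 higher and 713 lower for KO against WT, 468 and 495 for set 519 KO against WT, 411 and 454 for KO against set 519 KO, 596 and 801 for the age difference, and 673 and 743 for KO against WT 2-day cultures. Of list counts, the GTPases had 1 lower member with RLE and with library totals, class II genes 1 lower and T and NK markers 0 lower under the stricter filter, and dendritic markers 1 higher without a filter and 2 lower with only the compared groups. Leaving out 1 library gave 3 to 6 lower amino acid genes, 0 to 1 lower GTPases, 0 to 1 lower immunometabolism genes, 0 to 1 higher stromal markers and 1 to 2 lower dendritic markers; the cause was not tested. Resorption stayed at 10 lower and antiviral effectors at 27 higher in every alternative. Leaving out 1 library gave 4293 to 4441 higher and 4095 to 4258 lower genes for KO against WT. Library totals as the only scaling moved the median of all genes from -0.02 to -0.10. With a replicate block, 4625 genes were higher and 4466 lower. KO and WT share only the numbers 2 and 3, and deviations of same-numbered libraries correlated at 0 and 0.043, so the numbers do not pair libraries. Depth limits genes under about 1 CPM and Terc.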

Other observations

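Some genes were near 0 in some groups and present in others, in a pattern that followed neither genotype nor age alone. Whether the groups share a genetic background beyond their strain label was not tested. They were singled out after their values were seen, and are given as CPM of the library total, as mean ± SD with n = 3. Gm15446 was at 8.40 ± 0.374 in 6-month KO, 6.77 ± 1.19 in 6-month set 519 KO and 7.84 ± 0.0684 in 1-month WT. In 1-month KO it had 4 counts over 3 libraries, and in 6-month WT 5. In 20-month WT multinucleated cultures it had 3.

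Ifi208 was at 6.05 ± 1.16 in 6-month KO, 4.85 ± 0.762 in 1-month KO and 4.81 ± 0.451 in 1-month WT. It had 3 counts over the 6-month WT libraries and 5 over the 20-month WT multinucleated ones. Lrmda was at 11.5 ± 0.392 in 6-month KO, 14.7 ± 1.28 in 1-month KO and 11.3 ± 1.73 in 1-month WT, and at 0.740 ± 0.0731 in 6-month WT and 0.738 ± 0.206 in 20-month WT.

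Gm7993 had high values in both 6-month KO groups, 23.5 ± 0.687 in KO and 21.0 ± 0.117 in set 519 KO. It was at 0.210 ± 0.131 in 6-month WT, 0.254 ± 0.0439 in 1-month KO and 0.720 ± 0.438 in 1-month set 519 KO. The platelet chemokine gene Ppbp was at 3.99 ± 0.983 in 6-month KO, 5.12 ± 0.329 in 1-month KO and 3.57 ± 1.33 in 1-month WT. It had 4 counts over the 6-month WT libraries and 5 over the 6-month set 519 KO libraries.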
